A study of Homo sapiens with 6 samples.

Results

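The MAPK phosphatase and Sprouty feedback genes are 10 genes whose products switch off signalling by the mitogen-activated protein kinases ERK, JNK and p38. They were chosen by gene symbol, and all 10 were among the 13271 genes of the deposited table: DUSP1, DUSP4, DUSP5, DUSP6, DUSP8, DUSP10, SPRY2, SPRY4, SPRED1 and SPRED2. They were measured by RNA sequencing in 5637, a human bladder cancer cell line, 48 h after lipid transfection of a single line with a plasmid for MAT1A, the liver-type methionine adenosyltransferase (the MAT1A group, 3 libraries), or with an empty vector (the control group, 3 libraries). No other treatment separates the groups. The share of cells that took up plasmid and the origin of the replicates (separate cultures or not) are not stated in the labels. The p-values therefore describe variation among these 6 libraries, some or all of which may be technical. Values are reads per gene relative to a scaled library size (CPM-like).

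Growth factor receptors signal through RAS, RAF, MEK and ERK, while stress and cytokines act mainly through JNK and p38. The typical dual-specificity phosphatases (DUSPs) remove phosphate from both the threonine and the tyrosine of the MAP kinase activation loop, and several of their genes are themselves transcribed in response to the kinase they inactivate. Sprouty and SPRED proteins act higher up, between the receptor and RAF. Epithelial cancers with an active RAS pathway commonly keep high levels of this feedback set.

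In the MAT1A libraries 7 of the 10 genes fell and 0 rose (limma, Benjamini-Hochberg adjusted p under 0.05), where 7.4% of all 12866 tested genes fell and 4.01% rose. The 10 genes were listed with earlier results of these data known, so their contrast with all tested genes is no independent evidence. DUSP8, a phosphatase of JNK and p38, fell 4.56-fold, and the other 6 falls (DUSP1, DUSP5, DUSP6, SPRY2, SPRED1 and SPRED2) were of 10.1% to 22.4%. DUSP4, DUSP10 and SPRY4 did not pass. Unadjusted, 8 of the 10 had p under 0.05, as did 3373 of all 12866 tested genes. That share is also the background for the unadjusted counts of the lists below. In edgeR and in DESeq2 on the recovered reads 0 rose as well, and DESeq2 called 5 lower, without DUSP1 and SPRED2. With the replicate number as a block in limma, 7 fell and 1, DUSP10, rose. The median log2 change of the 10 genes was -0.22, against 0.004 over all tested genes, and 11.4% of all tested genes were called in either direction. In a bulk sample, fewer cells that express a gene and less RNA per cell cannot be told apart.

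The sequences upstream of DUSP8 and DUSP1 are shown. Of the 8 members searched, only these held any of the 6 motifs in the 250 bases before a start site. DUSP4 and DUSP5 were not searched. The motifs, read on both strands, were the cyclic AMP response element (CRE, TGACGTCA, its own reverse complement), the AP-1 site TGANTCA, the E-box CACGTG, the ETS core CCGGAAGT, the CArG box bound by serum response factor, and the NF-kB site. DUSP8 held 2 exact CREs, at 118 to 111 and at 74 to 67 bases before its RefSeq start, and DUSP1 held 1, at 125 to 118 bases, followed by an E-box at 108 to 103. A CRE was present in 1.65% of the 35116 windows of this length in the RefSeq table (GRCh38.p14), an E-box in 6.34%, an AP-1 site in 6.57%, an NF-kB site in 5.21%, an ETS core in 3.42% and a CArG box in 1.16%. These shares are not matched for base content. GC content was 76.8% for DUSP8 and 74.4% for DUSP1, against a median of 58.0% over all windows. The CG dinucleotide, which the CRE contains, occurred 33 and 30 times, against a median of 11. The windows are chr11:1572272-1572521 (minus strand) for DUSP8 and chr5:172771196-172771445 (minus strand) for DUSP1, printed 5′ to 3′ toward the start site, with the CREs and the E-box in capitals.
DUSP8: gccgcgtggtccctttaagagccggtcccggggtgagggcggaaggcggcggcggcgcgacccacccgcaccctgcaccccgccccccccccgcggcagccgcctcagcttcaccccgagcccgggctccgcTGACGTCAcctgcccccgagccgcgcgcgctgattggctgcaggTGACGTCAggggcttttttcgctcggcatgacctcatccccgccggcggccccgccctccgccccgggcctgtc
DUSP1: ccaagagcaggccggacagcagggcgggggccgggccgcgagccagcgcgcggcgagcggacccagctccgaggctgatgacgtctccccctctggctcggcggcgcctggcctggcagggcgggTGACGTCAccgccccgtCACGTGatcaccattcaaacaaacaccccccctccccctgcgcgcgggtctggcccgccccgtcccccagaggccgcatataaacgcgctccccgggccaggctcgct
No motif of the 6 was found in the other 10 windows, which belong to DUSP6, DUSP10, SPRY2, SPRY4, SPRED1 and SPRED2. A match is a string of letters and says nothing about binding in these cells.

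DUSP8 had the largest change of the 10. The gene (ENSG00000184545.10) lies on chromosome 11 at 1554044 to 1571920 of GRCh38, on the minus strand, and encodes a phosphatase that prefers JNK and p38 over ERK. Control libraries 1, 2 and 3 gave values of 7.0, 6.72 and 8.64 for DUSP8 (122, 133 and 179 reads), and the MAT1A libraries gave 1.67, 1.70 and 1.54 (31, 33 and 33 reads). The groups lay far apart, with the lowest control library well over any MAT1A library, and the MAT1A values were close together while control 3 stood above the other control libraries. With means of 7.45 ± 1.04 in control and 1.64 ± 0.0847 after MAT1A (SD, n = 3), limma fitted a log2 change, on the log2(value + 1) scale, of -1.68 (SE 0.110; adjusted p = 1.8e-08). Of all tested genes, 18 had a more negative log2 change, and the median over the 952 called lower was -0.28. Because the added 1 shrinks changes of low values, the log2 change was -2.19 in edgeR and in DESeq2 on the recovered reads. It stayed called in each of 19 alternative fits, between -2.19 and -1.58. Of the 36-base words in its transcripts 5.03% also occurred in transcripts of other genes, pseudogene copies of DUSP8 first among them. Reads from those words cannot be placed by sequence alone, and their share of the DUSP8 reads was not measured.

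**Figure D1:**
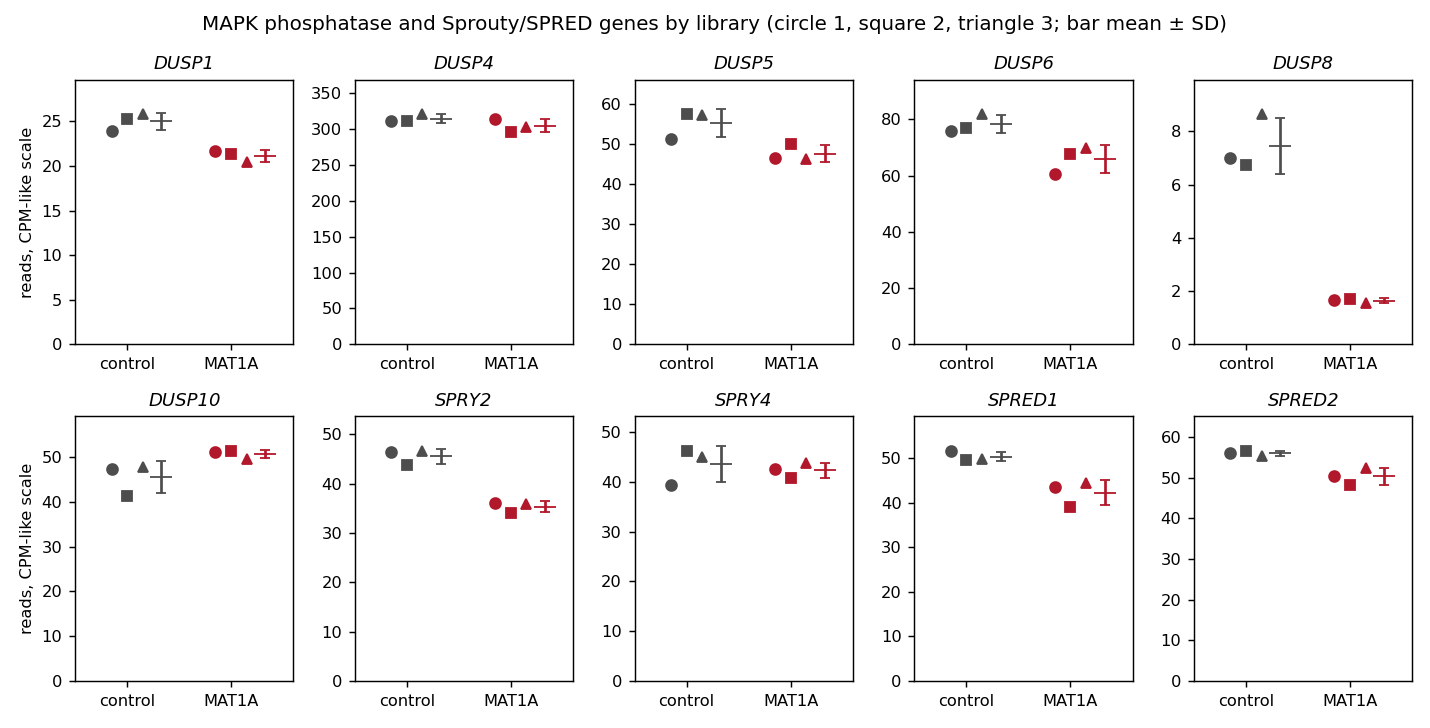
Values of the 10 genes in reads on the CPM-like scale (linear axes from 0), with 1 point per library (circle, square and triangle for replicates 1, 2 and 3; grey control, red MAT1A) and mean ± SD over 3 libraries beside them. DUSP8 sits between 6.72 and 8.64 in control and between 1.54 and 1.70 in MAT1A libraries, while DUSP4 and SPRY4 overlap between the groups.

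DUSP10 and DUSP16, the other phosphatases measured here that act mainly on JNK and p38, were not called lower. DUSP10, which acts on JNK and p38 and not on ERK, was 47.4, 41.4 and 47.8 in the control libraries and 51.1, 51.4 and 49.7 in the MAT1A libraries. All 3 MAT1A values were above all 3 control values, a separation in that direction that 14.7% of all tested genes showed. The means were 45.6 ± 3.57 and 50.7 ± 0.880 (SD, n = 3), and the log2 change of 0.16 (95% interval 0.04 to 0.27) did not pass (limma adjusted p = 0.0691); with the replicate number as a block it passed (adjusted p = 0.0268), and without control 2 it was 0.09. DUSP16, which also targets JNK and p38 and is no member of the set, had a log2 change of 0.13 (95% interval -0.02 to 0.29; adjusted p = 0.264). Within each library, the log2(value + 1) of DUSP8 minus that of DUSP10 was -2.60, -2.46 and -2.34 in control and -4.29, -4.28 and -4.32 in MAT1A libraries, a difference of -1.83 (exact two-sided permutation p = 0.1, the smallest that 3 against 3 allows). This pair was picked after its values were seen, and adjusted over the 5 pairs compared in this way the permutation p is 0.125.

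Of the phosphatases that act mainly on ERK, DUSP5 and DUSP6 fell and DUSP4 and DUSP7 did not. DUSP6, the cytoplasmic phosphatase of ERK, was 75.9, 76.8 and 81.8 in control and 60.4, 67.5 and 69.7 in MAT1A libraries, so that every MAT1A library lay below every control library. Its log2 change was -0.25 ± 0.050 (SE; limma adjusted p = 0.004), and it stayed called in all 19 alternatives. DUSP6 shares 1875 exon bases with AC024909.2, an antisense gene on the opposite strand with no row among the genes analysed here, and 38.1% of its 36-base words occur there. Since the library kit does not mark strand, reads of the pair cannot be told apart.

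DUSP5, a nuclear phosphatase specific to ERK, was 51.1, 57.4 and 57.1 in control and 46.5, 50.0 and 46.2 in MAT1A libraries. The groups did not overlap, but control 1 and MAT1A 2 were close. The log2 change was -0.21 ± 0.051 (SE; limma adjusted p = 0.0131), and the call was lost without control 2 (adjusted p = 0.0640), control 3 (0.0807) or MAT1A 1 (0.0580).

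DUSP1, the immediate early phosphatase of p38, JNK and ERK, was 23.9, 25.3 and 25.8 in control and 21.7, 21.3 and 20.4 in MAT1A libraries. Here too the groups did not overlap. The fall of 15.5%, in log2 -0.23 ± 0.057 (SE), passed (limma adjusted p = 0.0147), and the call was lost without control 2 (adjusted p = 0.0507) or control 3 (0.0814), and in DESeq2 on the recovered reads (0.0519).

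DUSP4, a nuclear phosphatase of ERK and JNK, had the highest level of the set, at 311, 312 and 321 in control and 315, 296 and 303 in MAT1A libraries. The groups overlapped, with MAT1A 1 above the lowest control library. The log2 change was -0.05 with a 95% interval of -0.11 to 0.02 (limma adjusted p = 0.375; 0.044, and so called, in the single alternative that joined the replicate block with removal of the length and GC trend). DUSP7, an ERK phosphatase related to DUSP6 and no member of the set, was 121, 124 and 123 in control and 132, 128 and 126 in MAT1A libraries, a log2 change of 0.07 (adjusted p = 0.214). The log2(value + 1) of DUSP6 minus that of DUSP7 was lower in every MAT1A library (-0.96 ± 0.14) than in every control library (-0.64 ± 0.06; SD, n = 3; exact permutation p = 0.1, again the smallest possible). That pair too was picked after its values were seen, with an adjusted permutation p of 0.125.

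Among the Sprouty genes, SPRY2 fell and SPRY4 did not pass. SPRY2, whose product restrains RAS activation by receptor tyrosine kinases, is a minus-strand gene of chromosome 13 (80335976 to 80340951). It had values of 46.3, 43.7 and 46.6 in control and 36.1, 34.0 and 35.8 in MAT1A libraries, with a wide gap between the groups and little spread within them. The 3 differences between libraries of the same number were -0.35, -0.35 and -0.37 on the log2 scale. With a fall of 22.4%, the log2 change was -0.36 ± 0.048 (SE; limma adjusted p = 8.79e-05), called in all 19 alternatives and between -0.39 and -0.33 in them.

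SPRY4, a second inducible Sprouty gene, was 39.4, 46.2 and 45 in control and 42.5, 40.8 and 43.7 in MAT1A libraries. Control 1 was lower than any MAT1A library, and the groups overlapped. The log2 change was -0.04 with a 95% interval of -0.16 to 0.08 (limma adjusted p = 0.728). The lower end of that interval is a smaller fall than the -0.36 fitted for SPRY2. Within libraries, the log2(value + 1) of SPRY2 minus that of SPRY4 went from 0.07 ± 0.15 to -0.26 ± 0.03 (SD, n = 3; exact permutation p = 0.1, the smallest possible), and the 5 gene pairs compared in this way were picked after their values were seen; adjusted over the 5, this p is 0.125. For DUSP5 against DUSP4, of that family too, the groups overlapped (-2.49 ± 0.08 and -2.66 ± 0.10; exact permutation p = 0.2, also 0.2 adjusted).

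Both SPRED genes, whose products bind neurofibromin and inhibit RAS, fell. SPRED1 was 51.7, 49.7 and 49.9 in control and 43.5, 39.1 and 44.4 in MAT1A libraries, with MAT1A 2 lowest and no overlap. Its log2 change was -0.25 ± 0.051 (SE; limma adjusted p = 0.00388).

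SPRED2 was 56.2, 56.6 and 55.3 in control and 50.5, 48.3 and 52.4 in MAT1A libraries. Control values were very close together, and MAT1A 3 came nearest to them. The fall of 10.1% was the smallest that passed (log2 change -0.15 ± 0.043, SE; limma adjusted p = 0.033), and the call was lost when any library but MAT1A 3 was left out (adjusted p up to 0.102) and in DESeq2 (0.104). Together 7 of the 10 genes had all MAT1A libraries below all control libraries, which 15.6% of all tested genes showed.

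**Figure D2:**
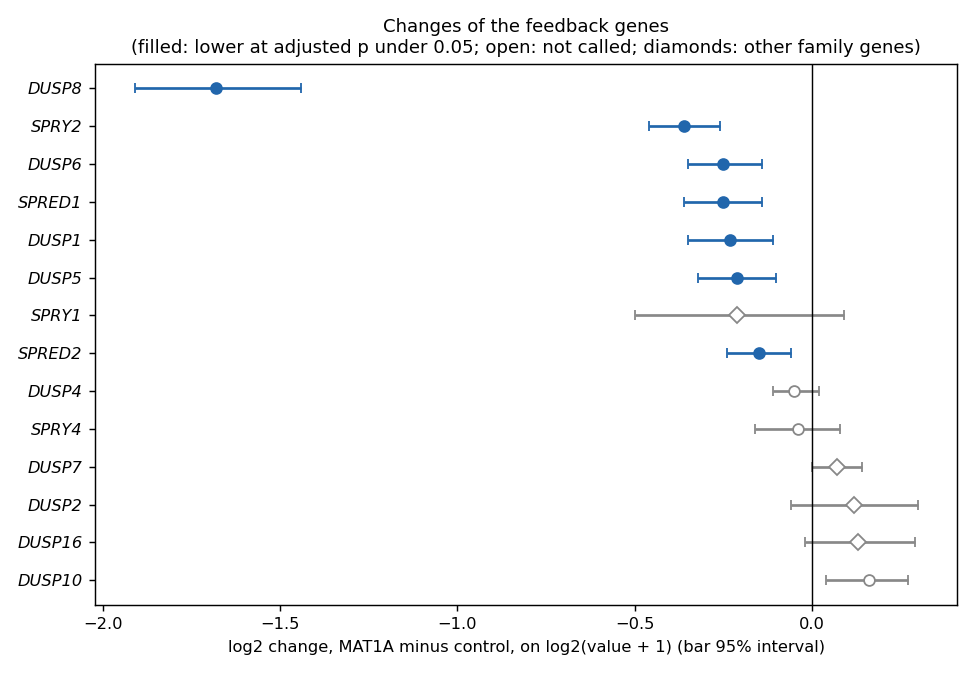
Log2 change of the 10 genes (circles) and of 4 other tested genes of the same families (diamonds) from control to MAT1A, in log2(value + 1) units, with 95% intervals from limma; filled symbols were called lower. DUSP8 stands at -1.68 and the other called genes lie between -0.36 and -0.15, while DUSP10, DUSP16, DUSP2 and DUSP7 lie above 0 and were not called.

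Of the other genes of these families, none of the 4 tested was called (limma; 0 with unadjusted p under 0.05, and 0 in edgeR and in DESeq2). DUSP2, a nuclear phosphatase best known from activated lymphocytes, was 7.0, 6.52 and 6.61 in control and 7.33, 7.86 and 7.04 in MAT1A libraries (log2 change 0.12, adjusted p = 0.379). Per kb of exon its control level was 3.47 ± 0.133 (SD, n = 3), above the 1.61 ± 0.224 of DUSP8. SPRY1 was 3.35 ± 0.630 and 2.78 ± 0.673 (SD, n = 3) with overlapping groups, and SPRED3, under 1 in every library, was not tested. DUSP2, DUSP7 and DUSP16 each had all MAT1A values above all control values, as 14.7% of all tested genes did.

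Per kb of exon, which allows a rough comparison of levels between genes, DUSP4 led the control libraries at 43.4 ± 0.791 (SD, n = 3). DUSP7 (21.7 ± 0.219) and DUSP5 (21.1 ± 1.35) followed and did not differ beyond their spread. DUSP6 (16.9 ± 0.693), DUSP10 (15.6 ± 1.23) and SPRY2 (15 ± 0.516) came next, with the last of these and DUSP10 within their spread. Below them stood DUSP1 (12.4 ± 0.480), SPRED2 (10.9 ± 0.129), SPRY4 (6.63 ± 0.550) and SPRED1 (6.10 ± 0.129), of which the last pair overlapped. DUSP8 was lowest of the 10, at 1.61 ± 0.224 in control and 0.354 ± 0.0183 in MAT1A libraries. In the MAT1A libraries DUSP10 (17.4 ± 0.302) stood above DUSP6 (14.2 ± 1.05). The exon length used for DUSP6 includes the 1875 bases shared with AC024909.2. How reads there were counted is not known, so the place of DUSP6 in this order is uncertain. As a share of the summed per-kb level of 9 typical phosphatase genes, DUSP4 made up 31.4% ± 0.212 in control and 32.0% ± 0.928 in MAT1A libraries, and DUSP8 1.17% ± 0.134 and 0.270% ± 0.0118.

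**Figure D3:**
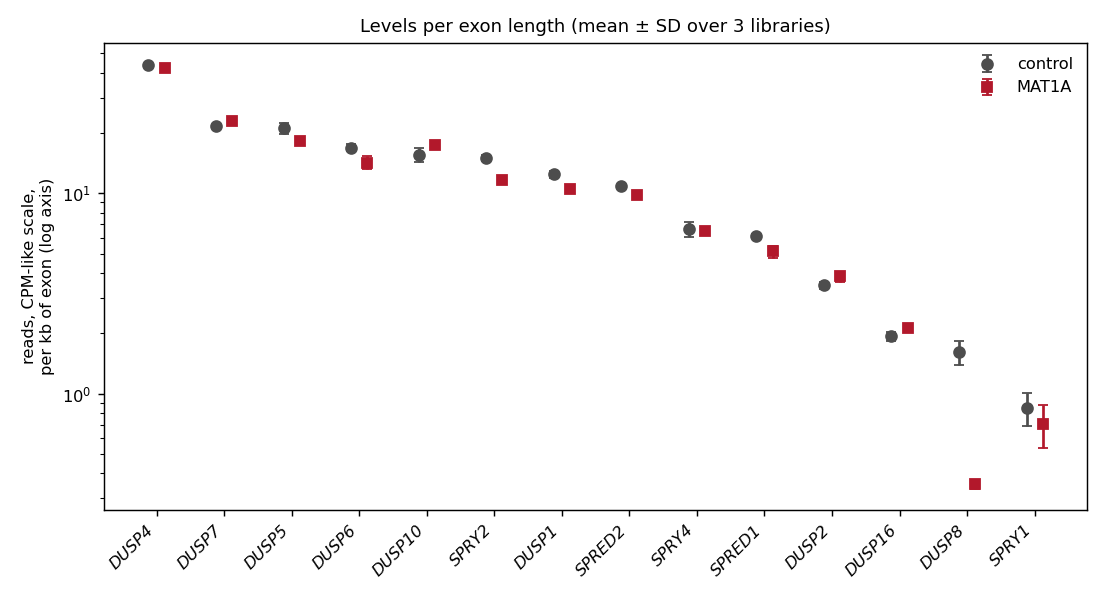
Level per kb of exon (log axis, mean ± SD over 3 libraries) of the 10 genes and 4 related genes, ordered by the control mean; circles are control and squares MAT1A. DUSP4 leads at 43.4 in control, and DUSP8 falls from 1.61 to 0.354.

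Summed on the CPM-like scale, the 6 DUSP members came to 526 ± 14.3 in control and 492 ± 4.01 in MAT1A libraries, a fall of 6.55%, with DUSP4 contributing most of the sum. Without DUSP4 the fall was 11.6%. Over the 9 typical phosphatase genes, which add DUSP2, DUSP7 and DUSP16, the sum went from 667 ± 14.5 to 640 ± 6.99, a fall of 3.99%. The 4 Sprouty and SPRED members went from 196 ± 1.74 to 170 ± 7.42, a fall of 12.9%. In all of these sums each MAT1A library was below each control library (exact two-sided permutation p = 0.1, the smallest that 3 against 3 allows). DUSP8, with the largest fold change, had the fewest reads of the set in every library.

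Further lists hold the kinases and adaptors that this feedback acts on. Of 17 genes of the RAS to ERK cascade, 4 fell and 0 rose (limma; 4 in edgeR, 2 in DESeq2), with a median log2 change of -0.04. The MEK gene MAP2K2 was called higher with the replicate block (log2 change 0.10, adjusted p = 0.0277) and without MAT1A 3 (0.12, adjusted p = 0.0375). BRAF, a RAF kinase gene, fell from 36.6 ± 1.82 to 30.4 ± 1.33 (SD, n = 3; log2 change -0.26, adjusted p = 0.00509; it shares 1239 exon bases with NDUFB2 on the opposite strand), SOS2, a RAS exchange factor gene, from 46.8 ± 0.278 to 39.8 ± 0.902 (-0.23, adjusted p = 0.0024), and NRAS by 8.33%. The NRAS call (limma adjusted p = 0.0437) was lost without control 1, control 3, MAT1A 1 or MAT1A 2. The fourth, the other MEK gene MAP2K1, passed narrowly (0.0498). MAP2K1 also shares exon bases with genes on the opposite strand (432 with AC116913.1 and 216 with SNAPC5). Without control 1, control 3, MAT1A 1 or MAT1A 2 the number of calls was 2. Of 18 genes of the JNK and p38 cascades 0 were called (limma; 4 with unadjusted p under 0.05; 0 in edgeR and DESeq2), and the median was 0.02; the smallest p belonged to MAP3K5 (log2 change 0.12, adjusted p = 0.134) and MAPK11 (-0.28, 0.109).

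Among 13 genes commonly induced by ERK, 6 fell and 0 rose, and all 13 log2 changes lay below 0, with a median of -0.12. Of all 12866 tested genes, 6243 had a log2 change below 0. EGR1, an immediate early transcription factor gene, fell from 41.6 ± 4.41 to 12.7 ± 1.30 (SD, n = 3; log2 change -1.64), FOS from 4.06 ± 0.0571 to 1.96 ± 0.174 (-0.77) and PHLDA1 from 431 ± 18.1 to 374 ± 3.74 (-0.20; limma adjusted p = 0.000511). PHLDA1 shares 553 exon bases with AC011611.3 and 779 with AC011611.4, antisense genes on the opposite strand with no row here. EGR1 and FOS were known from earlier results of these data to fall, so the list of ERK-induced genes is no independent evidence. Of 11 other inhibitors of receptors and RAS, 0 were called (limma, 2 with unadjusted p under 0.05, and 0 in edgeR and DESeq2). With the replicate block 1 of them rose, PEBP1 (limma adjusted p = 0.00885). The 9 atypical dual-specificity phosphatases are proteins of the same fold that lack the MAP kinase docking domain. Of these, 0 were called (limma, 1 with unadjusted p under 0.05, and 0 in edgeR and DESeq2). With the replicate block 1 of these fell, DUSP3 (limma adjusted p = 0.042).

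**Figure D4:**
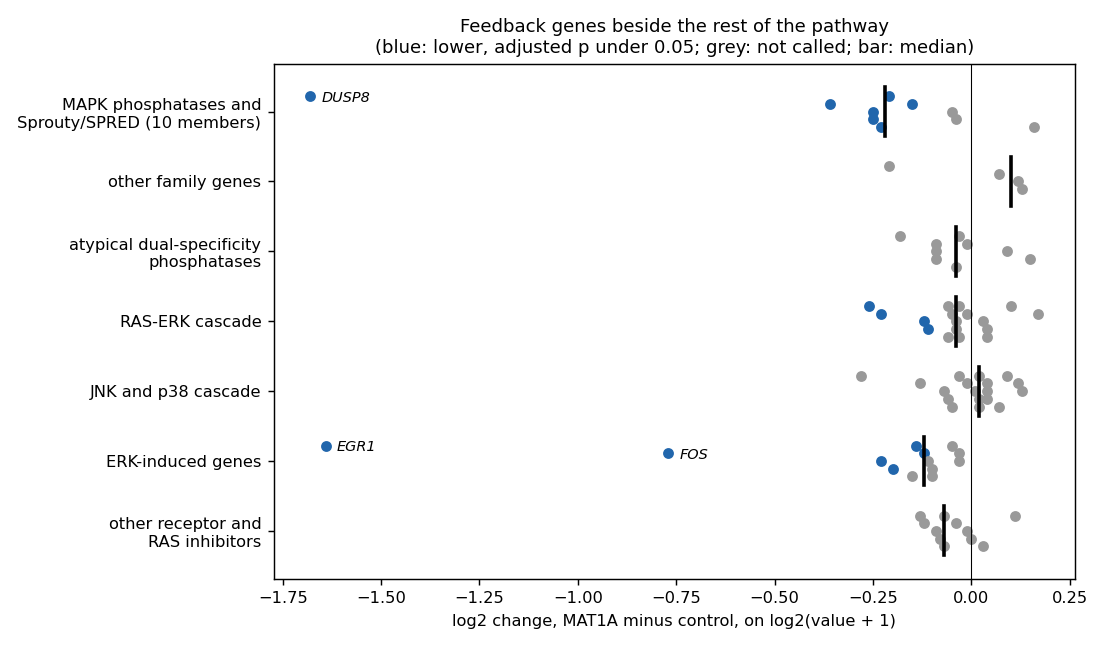
Horizontal axis, log2 change from control to MAT1A in log2(value + 1) units; each point is 1 tested gene of the 7 lists, with called genes in blue, other genes in grey and the median of each list as a black bar. The medians are -0.22 for the 10 feedback genes, -0.12 for ERK-induced genes and -0.04 for the RAS to ERK cascade.

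Across the series, MAT1A itself lay between 0.253 and 4.54 without its plasmid and between 1805 and 1917 with it, at depths of 17.4 to 21.6 M reads per library. The 8 epithelial markers were all present, and 5 of them were called higher (median log2 change 0.14), with a sum of 11438 ± 158 in control and 12582 ± 608 after MAT1A (SD, n = 3). All 11 skeletal muscle markers were also present and all were called lower (median log2 change -1.76), and they summed to 436 (control 1), 133 (control 2) and 74.9 (control 3), against 72.6 (MAT1A 1), 32.6 (MAT1A 2) and 27.2 (MAT1A 3). The 3 listed fibroblast markers of 7 summed to between 121 and 259, with control 1 highest, and LYZ and VWF, the only leukocyte and endothelial markers with a row here, lay between 0.0466 and 1.66. Control 1, with the most muscle transcripts, had the highest control value of SPRED1 and not of the other 6 genes called lower. Every control library had a higher muscle sum than every MAT1A library, so muscle level and group cannot be fully told apart. Without control 1 the log2 changes were -1.71 for DUSP8, -0.35 for SPRY2 and -0.27 for DUSP6, and 6 of the 10 genes were called, SPRED2 being lost. With the muscle level as a covariate 4 were called (DUSP5, DUSP6, DUSP8 and SPRY2), with log2 changes of -0.32, -0.37, -1.79 and -0.34, while DUSP1, SPRED1 and SPRED2 were not (adjusted p = 0.163, 0.256 and 0.378), in a fit that called 329 genes in all.

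**Figure D5:**
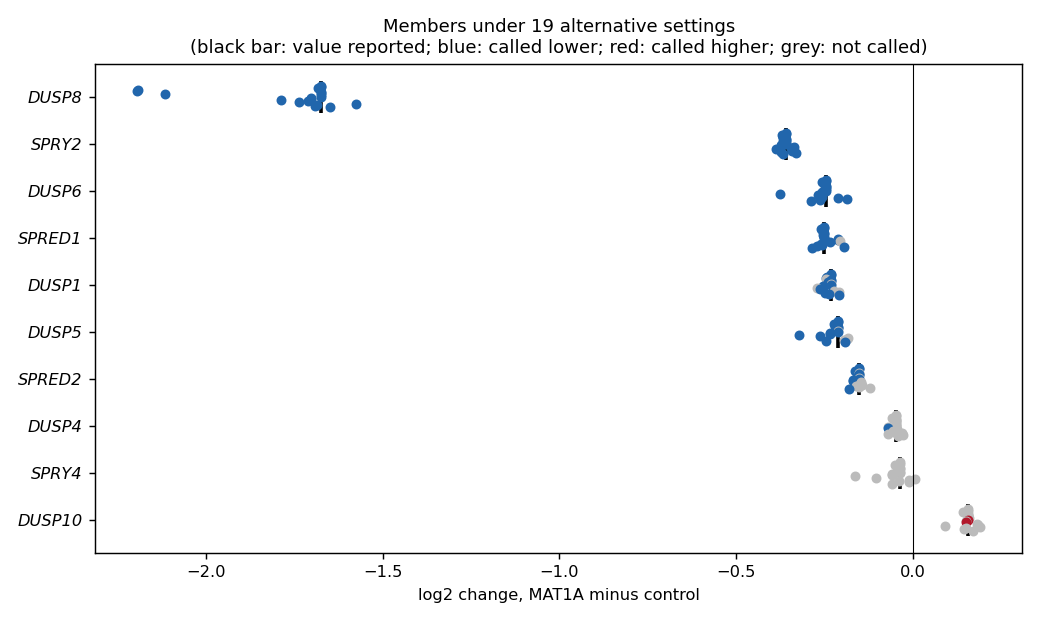
Log2 change of each of the 10 genes in the reported fit (black bar) and under 19 alternative settings (points; blue called lower, red called higher, grey not called). DUSP8 lies between -2.19 and -1.58 and is called throughout, SPRY4 is never called, and DUSP10 is called higher only in the 2 fits with a replicate block.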

How the data were processed

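RNA of 3 control and 3 MAT1A libraries was read with 36-cycle reads from unstranded TruSeq libraries, per the labels' protocols. Values deposited by the authors are a signal: reads of a gene over a scaled library size (column sums 997732 to 1015443). Tools in the submitters' processing notes are edgeR, featureCounts and STAR (2.6.0c), with build hg38 (annotation and settings: not given in the sources used here). All values were whole multiples of 1 step per column within 0.001, so reads could be recovered (17.4 to 21.6 M per library). A floor of 3 reads equals 0.140 to 0.172 on the deposited scale and, as for all counts, covers counting error only.

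Since the table holds scaled values and not counts, the main test was limma 3.58.1 (R 4.3.3, intensity trend) on log2(value + 1) for 12866 genes, those reaching a value of 1 in 3 or more libraries. Benjamini-Hochberg adjustment covered all 12866, with 0.05 as the limit for a call. Alternatives were edgeR 4.0.16 and DESeq2 1.42.0 on the recovered reads, other scalings, filters and a pseudocount of 0.1, a stricter threshold, a replicate block, removal of the trend on exon length and GC, a muscle covariate, and leaving out each library; the fitting code was tested on simulated data. After group means were removed, libraries of the same number correlated (0.25, 0.18 and 0.19). A pairing by number thus rests on the data and not on a label. The main fit and the exact permutation tests ignored this pairing. Among the tests, only the fits with a replicate block used it. Pairs within a group differed by more than sampling noise (chi-square per degree of freedom 1.87 to 4.46).

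Members and gene lists were chosen with earlier results of these data known. Named genes are the 10 members, MAT1A, the related family genes, and from each other list up to 3 called genes per direction with the smallest p, or 2 where none was called; MAP2K1, MAP2K2, PEBP1 and DUSP3 stand where a count turns on them. Positions and exon lengths are from GENCODE 29 (GRCh38), which matched 13211 of the 13271 symbols. Promoter windows are RefSeq's (GRCh38.p14), and those of 8 of the 10 members were searched. Windows on chromosome 8 were left out of the member search, so DUSP4 was not searched, whether or not it has an entry. DUSP5 had no window of the full length. A planned description of protein sequences was not made, since no protein table was used here.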

Additional observations from a re-analysis of the deposited data

How the results depend on the processing

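Of the 10 feedback genes, 7 were called. The count was 4 at adjusted p under 0.01 and 4 with the muscle covariate, 5 in DESeq2 on the recovered reads, 8 (7 lower, 1 higher) with the replicate block, 9 (8 lower, 1 higher) with the block and the length and GC trend removed, and between 4 and 7 when 1 library was left out, with 4 without control 2 or control 3. DUSP6, DUSP8 and SPRY2 were called in all 19 alternatives, and DUSP8, DUSP6, SPRY2 and SPRED1 in every fit that left out 1 library. Apart from DUSP10, DUSP3, PEBP1 and MAP2K2, the replicate block alone changed the call of no member or other named gene. For all genes the count of 1468 (35.1% of them higher) became 957 in DESeq2, 663 at adjusted p under 0.01, 2310 with the replicate block (2396 with the trend removed as well), 329 with the muscle covariate, and 796 to 1658 when 1 library was left out. The share higher was 28.3% with library size taken without MAT1A, 40.4% with the trend removed and 20.1% with the muscle covariate. The RAS to ERK cascade had 2 calls in DESeq2 and at adjusted p under 0.01, 1 with the muscle covariate, 5 (4 lower, 1 higher) with the replicate block and 2 to 4 when 1 library was left out (3 lower, 1 higher without MAT1A 3); ERK-induced genes had 3 with the muscle covariate and 4 to 8 when 1 library was left out. Atypical phosphatases and the other inhibitors each had 1 call with the replicate block, with the trend removed and with both, and the other inhibitors 0 to 2 when 1 library was left out. The JNK and p38 list had 1 call with the block and the trend removed. A lone change of sign was in SPRY4, which was not called and moved from -0.04 to 0.01 without control 2. Where leaving out a library or adding a covariate ended a call, the cause was not tested. DUSP8 had 31 to 33 reads per MAT1A library, so its level there is the least precisely counted of the set.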

Other observations

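Because DUSP8 held 2 exact CREs and DUSP1 held 1, the motif was looked up for all tested genes with a RefSeq window. The choice was made after the windows of the 8 searched members had been read. Of 10043 such genes, 346 had at least 1 CRE, and 6.65% of these were called lower and 4.05% higher. Among the 9697 genes without one, 7.11% were called lower and 4% higher, and the median log2 changes were 0.006 and 0.005. Of the 12 tested genes with 2 or more CREs, DUSP8 was the single one called lower; EMC10 (log2 change 0.18, limma adjusted p = 0.0216) and NSMF (0.13, adjusted p = 0.0499) were called higher, and the other 9, JARID2 and ARG2 among them, were not called. With 2 or more CREs the share called lower was thus 8.33%, from 1 of 12 genes, too few to compare. Whether the motif bears on the falls was not tested.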
